A study of Homo sapiens with 7 samples.

Results

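Class II olfactory receptor genes that lie off chromosome 11 were placed on the H3K27me3 and H3K9me3 domains of HCT116 cells. Members were taken by symbol from GENCODE release 44 on hg38 as protein-coding autosomal genes outside chromosome 11 named OR, a family number from 1 to 14, a letter and a digit. This gave 227 genes of the 19111 protein-coding genes on the autosomes. They lie on 16 chromosomes, and chromosome 1 alone holds 63 of them. Start sites no more than 1 Mb apart were joined into clusters, which gave 29 clusters, of which 8 hold a single member and 10 hold at least 10 members, 177 in all. The symbol rule also takes in 6 genes whose names end in P (OR14L1P, OR9H1P, OR2B8P, OR9A1P, OR2I1P and OR1R1P), which GENCODE lists as protein-coding, and the readthrough gene OR4M2-OT1.

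HCT116 is an established human colorectal carcinoma line. The cells carried a doxycycline-inducible short hairpin RNA against UHRF1, the ubiquitin ligase that reads hemimethylated DNA and histone H3, and each of the groups comes from a single-cell clone, Clone 3 or Clone 6. All of them were grown for 14 days without doxycycline, so that no group had UHRF1 depleted and the domains describe the baseline state. ChIP-seq comprised 2 samples of Clone 3 H3K27me3, 2 of Clone 6 H3K27me3, 2 of Clone 3 H3K9me3 and 1 input of Clone 3, and the authors kept the domains found in both replicates of a clone and mark. A further pair of sets holds the domains common to the clones for each mark, and Clone 6 H3K9me3 was not analysed here other than through its shared set. Each of the 5 sets is a single list of intervals, so no replicate error or test stands behind a count, and the depth of each sample cannot be read from it. No expression was measured, and a gene outside a domain is a gene over which no domain was called.

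Olfactory receptors are G protein-coupled receptors that bind odorants on the cilia of olfactory sensory neurons. The class II genes are the tetrapod branch of the family, sit in tandem clusters scattered over the genome, and have a coding sequence usually held in a single exon. A sensory neuron expresses one receptor allele, and in that tissue the silent receptor genes are packed in heterochromatin that carries H3K9me3. Other tissues keep most of the genes silent. H3K27me3 is laid down by Polycomb repressive complex 2, and H3K9me3 is bound by HP1 proteins and by the tandem Tudor domain of UHRF1.

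The start regions of the members were poor in CpG. A RefSeq promoter, from 250 bases before to 50 after the start on GRCh38.p14, was found for 168 of the 227 members, and in 153 of these the RefSeq and GENCODE starts were identical. The median promoter of a member held 1 CpG in 300 bases, and 29 of the 168 held none, beside a median of 22 CpGs over 14616 protein-coding promoters. In 83 members the annotated start is the first base of a start codon, so for these the last 50 bases of the window are reading frame, whose CpGs are counted too, and the start is not a mapped promoter. The sequences below were chosen to show a member for each state of the domains, written 5′ to 3′ on the strand of the gene with each CpG in capitals. OR13C8 (chr9:104568918-104569217, plus strand) lay in H3K27me3 in both clones, OR6C3 (chr12:55329793-55330092, plus strand) in Clone 3 alone and OR10J5 (chr1:159535958-159536257, minus strand) in Clone 6 alone. OR14C36 (chr1:248348525-248348824, plus strand) is the last member inside the longest H3K9me3 domain that holds members, and OR2T4 (chr1:248361415-248361714, plus strand) is the first past its border. OR3A2 (chr17:3386259-3386558, minus strand, its RefSeq start 9 bp from that of GENCODE) lay in H3K27me3 in both clones and had the most CpGs of the 168. OR2L13 came next with 24, but its RefSeq start is 158007 bp from that of GENCODE.
OR13C8: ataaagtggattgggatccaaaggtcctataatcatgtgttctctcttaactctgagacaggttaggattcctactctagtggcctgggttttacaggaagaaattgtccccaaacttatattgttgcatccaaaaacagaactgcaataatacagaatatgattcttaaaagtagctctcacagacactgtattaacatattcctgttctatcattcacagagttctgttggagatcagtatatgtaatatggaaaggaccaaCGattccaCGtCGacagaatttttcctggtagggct
OR6C3: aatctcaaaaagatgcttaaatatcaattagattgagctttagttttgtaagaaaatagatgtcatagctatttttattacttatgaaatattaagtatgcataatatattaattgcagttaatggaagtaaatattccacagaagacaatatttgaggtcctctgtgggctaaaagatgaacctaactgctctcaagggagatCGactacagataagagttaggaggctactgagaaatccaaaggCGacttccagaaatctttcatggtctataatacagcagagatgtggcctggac
OR10J5: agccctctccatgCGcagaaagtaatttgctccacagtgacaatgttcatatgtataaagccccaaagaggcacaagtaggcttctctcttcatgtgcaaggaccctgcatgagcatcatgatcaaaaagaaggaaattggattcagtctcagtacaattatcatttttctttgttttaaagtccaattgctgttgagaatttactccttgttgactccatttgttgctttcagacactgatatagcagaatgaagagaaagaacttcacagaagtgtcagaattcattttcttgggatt
OR14C36: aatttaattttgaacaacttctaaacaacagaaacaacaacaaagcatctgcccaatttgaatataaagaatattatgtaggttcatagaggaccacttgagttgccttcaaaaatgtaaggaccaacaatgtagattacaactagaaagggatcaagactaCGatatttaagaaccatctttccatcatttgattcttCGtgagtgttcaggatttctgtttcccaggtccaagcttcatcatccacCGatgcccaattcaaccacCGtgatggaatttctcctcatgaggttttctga
OR2T4: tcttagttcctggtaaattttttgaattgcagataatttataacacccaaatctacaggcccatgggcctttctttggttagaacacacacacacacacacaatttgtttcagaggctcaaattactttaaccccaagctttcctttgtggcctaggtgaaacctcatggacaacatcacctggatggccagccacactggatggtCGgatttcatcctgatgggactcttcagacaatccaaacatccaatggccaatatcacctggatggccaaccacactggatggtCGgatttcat
OR3A2: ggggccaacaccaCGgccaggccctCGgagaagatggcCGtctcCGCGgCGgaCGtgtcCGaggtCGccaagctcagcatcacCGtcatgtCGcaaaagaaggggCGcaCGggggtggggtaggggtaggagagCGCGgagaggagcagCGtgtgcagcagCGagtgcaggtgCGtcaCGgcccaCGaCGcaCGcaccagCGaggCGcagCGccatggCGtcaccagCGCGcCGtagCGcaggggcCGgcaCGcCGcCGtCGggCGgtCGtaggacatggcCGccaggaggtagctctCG

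These promoters held 3 CpGs at OR13C8, 2 at OR6C3, 1 at OR10J5, 4 at OR14C36 and 2 at OR2T4, against 39 at OR3A2. The neighbours OR14C36 and OR2T4, with H3K9me3 and with neither mark, thus both fell within the CpG-poor range. Counted at the GENCODE start in all 227 members, 40 windows of 300 bases (17.6%) held no CpG, against 2.07% of the other protein-coding genes. The CpG counts of OR1F1, at 19, OR11H2, at 15, OR1R1P, at 10, and OR6B3, at 9, were the next highest after OR3A2. OR3A2 and OR1R1P lay in H3K27me3 in both clones, OR6B3 in Clone 6 alone, and OR1F1 and OR11H2 in neither mark.

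Domains covered the start sites of many members. A domain of any of the 5 sets covered 120 of the 227 start sites (52.9%), beside 12.6% of all protein-coding genes on the autosomes. Restricted to domains 100 kb or longer, this count was 98, beside 10.2% of all genes. H3K27me3 domains of Clone 3 held 81 members (35.7%, all genes 6.49%) and those of Clone 6 held 64 (28.2%, all genes 7.98%). The clone-shared H3K27me3 set held 57 members (25.1%, all genes 5.35%), and these were the same 57 that lay in domains of both clones (all genes 5.35%). H3K9me3 domains of Clone 3 and the clone-shared H3K9me3 set each held 32 members (14.1%), beside 3.50% and 3.39% of all genes. Without the cluster that holds the most members, from OR2B11 to OR14I1, 10 of the remaining 184 members lay in each of these sets. No member lay under both marks, where only 11 of the 19111 genes (0.0576%) did, so that a count of 0 is near the background. The remaining 107 members (47.1%) lay in neither mark. The members are not independent of each other, since the genes of a cluster share domains, and 3 domains held all 32 members with H3K9me3.

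**Figure D1:**
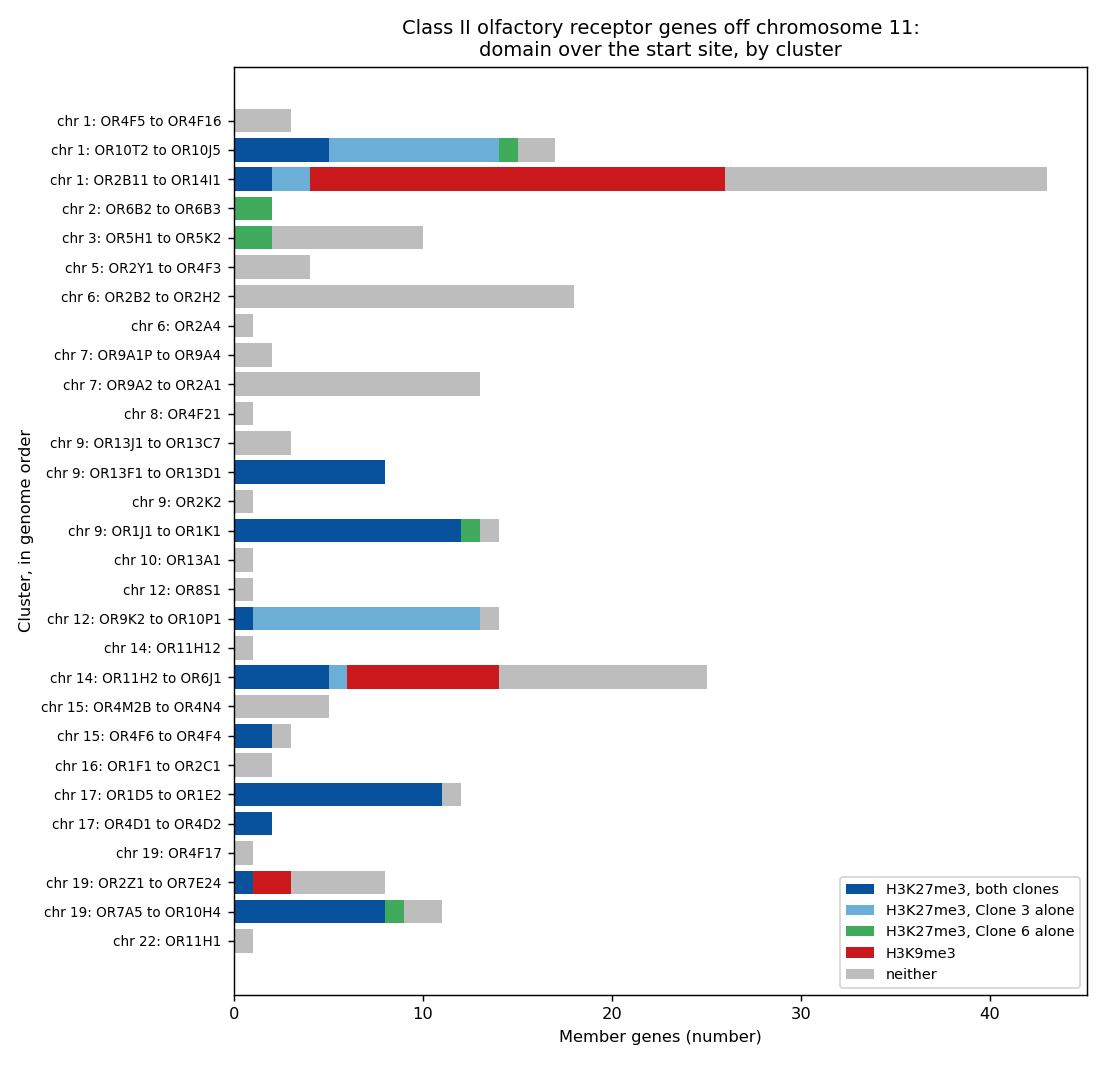
Number of member genes (horizontal axis) in each of the 29 clusters in genome order (vertical axis), coloured by the domain over the start site. H3K9me3 appears in 3 clusters, H3K27me3 in 13, and 16 clusters have no member in any domain.

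The state of a member was mostly that of its neighbours. Members in H3K27me3 were found in 13 clusters, and members in H3K9me3 in 3, each of which also had members in H3K27me3 and in neither mark. In 3 clusters with 12 members every start site lay in H3K27me3 of at least 1 clone, in 7 clusters with 81 members some lay in H3K27me3 and the rest in neither mark, and 16 clusters with 58 members had none in a domain. None of the 8 members that stand alone lay in a domain, which at 12.6% of all genes is near the background for so few genes. In 5 of them the sequence around the start site was mostly repeated, by the measure given further on. Of the 107 members in neither mark, 49 belonged to clusters where other members lay in a domain. Along the clusters, 168 of the 198 pairs of neighbouring members were in the same state, and no member in H3K27me3 stood directly beside one in H3K9me3. The members in H3K9me3 lay in only 3 domains, so few pairs could have joined the marks. The absence of such a pair was not set against a background.

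The distal cluster on the long arm of chromosome 1 is the largest, with 43 members from OR2B11 to OR14I1 (chr1:247458105-248682328), and it was divided into blocks. At its proximal end OR2B11 and OR2C3 lay in H3K27me3 of both clones, in a Clone 3 domain of 199 kb and a Clone 6 domain of 164 kb. OR2G2 and OR2G3 were covered in Clone 3 alone, at 18.6 kb and 1.41 kb from the border of the same Clone 3 domain. Those domains also cover NLRP3, an inflammasome sensor, and GCSAML. OR14L1P and OR13G1 then lay in neither mark. The next 22 members lay in a single H3K9me3 domain of 656 kb (chr1:247696001-248352000), of which 648 kb is in the clone-shared set. In order these are OR6F1, OR14K1, OR14A2, OR1C1, OR9H1P, OR14A16, OR11L1, OR2W3, OR2T8, OR2L8, OR2L5, OR2L2, OR2L3, OR2L13, OR2M5, OR2M2, OR2M3, OR2M4, OR2T33, OR2T12, OR2M7 and OR14C36. TRIM58, a ubiquitin ligase of the red cell lineage, starts in the same domain.

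This H3K9me3 domain ended between close neighbours. OR14C36 started 3.23 kb inside its border and OR2T4 started 9.67 kb outside it. OR2L2 was the deepest of all members in H3K9me3, at 322 kb from the border. Past the border, 15 members in a row lay in neither mark, namely OR2T4, OR2T6, OR2T1, OR2T7, OR2T2, OR2T3, OR2T5, OR2G6, OR2T29, OR2T34, OR2T10, OR2T11, OR2T35, OR2T27 and OR14I1. All 5 OR2L and all 5 OR2M genes thus lay in H3K9me3, while the 16 OR2T genes were divided into 3 with H3K9me3 and 13 with neither mark. The copy number of the sequence moved with that division. Over the 10 kb around each start site, the share of 50-base words present once in hg38 had a median of 50.8% (4.92% to 99.6%) in the 15 members past the border and was under 50% in 6 of them, against a median of 94.3% and none under 50% in the 22 members inside. The part of repeated sequence in this division was not tested. OR2T4 itself, the first member outside, stood at 98.1%.

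**Figure D2:**
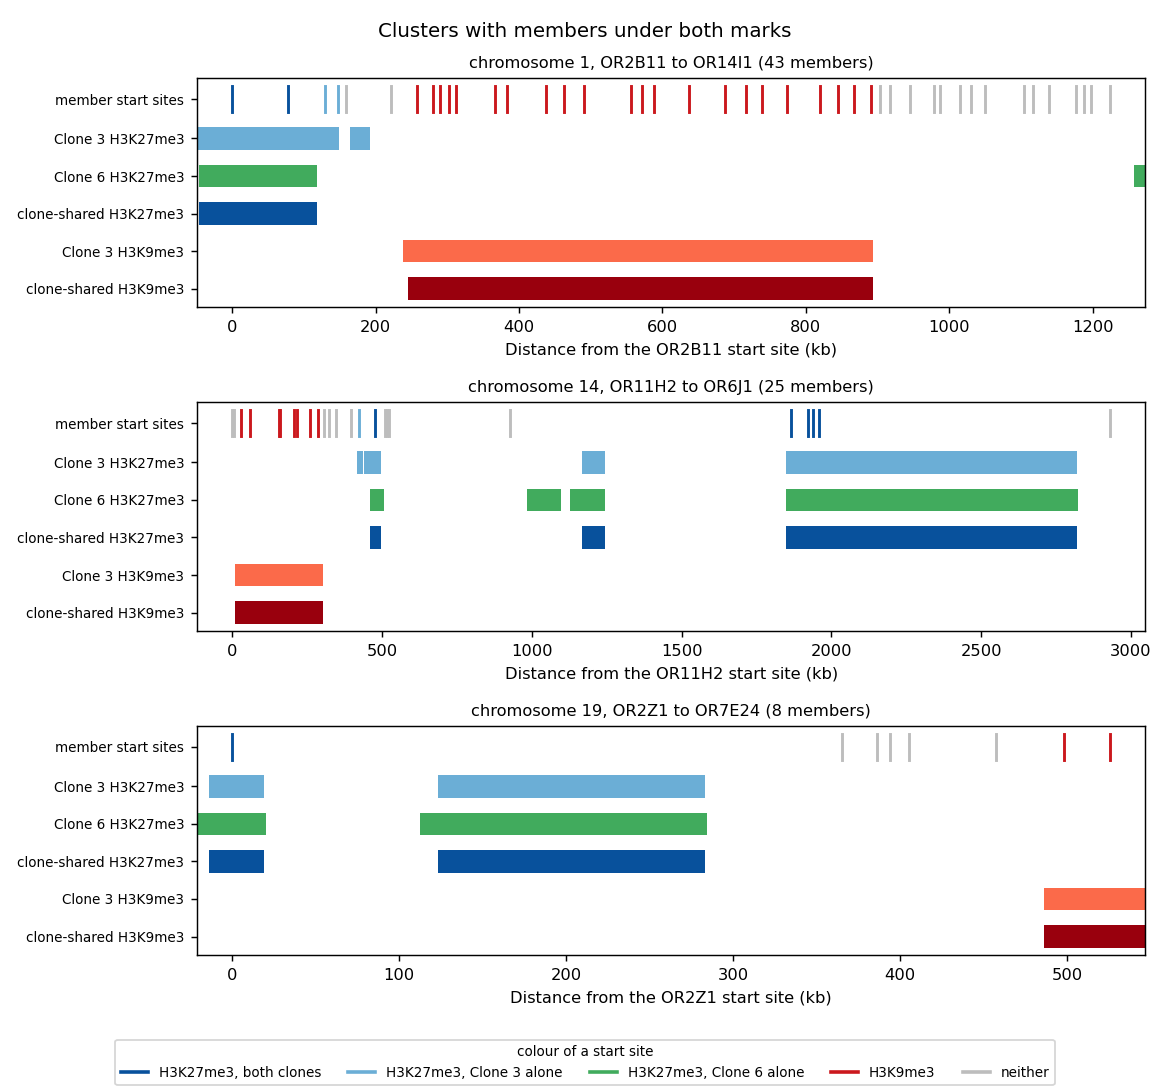
The 3 clusters that hold both marks, with the start sites of members (top row, coloured by state) above the intervals of the 5 domain sets, against distance in kb from the first start site. H3K27me3 and H3K9me3 take separate stretches, and in each cluster members in neither mark stand between them.

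On chromosome 14, 25 members from OR11H2 to OR6J1 (chr14:19713883-22644352) carried both marks in separate blocks. After OR11H2 and OR4N2, in neither mark, the 8 members OR4Q3, OR4M1, OR4K3, OR4K2, OR4K5, OR4K1, OR4K15 and OR4Q2 lay in an H3K9me3 domain of 292 kb (chr14:19724001-20016000) that has the same borders in the clone-shared set. OR4K14, 3.31 kb past its border, and OR4K13, OR4L1 and OR4K17 were in neither mark. OR4N5 lay in H3K27me3 of Clone 3 alone, in a domain of 20 kb, and its neighbour OR11G2 lay in H3K27me3 of both clones. OR11H6, OR11H7, OR11H4 and OR6S1 followed in neither mark, with OR11H6 only 1.71 kb outside a Clone 6 domain. At the far end OR10G3, OR10G2, OR4E2 and OR4E1 lay in H3K27me3 of both clones, and OR6J1 in neither mark. The domain over these 4 genes is the longest with a member, 973 kb in Clone 3 and 974 kb in Clone 6. It holds 117 T-cell receptor gene segments in Clone 3 and 118 in Clone 6, and no other protein-coding gene outside the olfactory receptors.

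The third cluster with both marks lies on chromosome 19, with 8 members from OR2Z1 to OR7E24 (chr19:8721634-9247344). OR2Z1 lay in H3K27me3 of both clones, in domains of 33 kb and 86 kb. OR1M1, OR7G2, OR7G1, OR7G3 and OR7D2 lay in neither mark. OR7D4, a receptor for androstenone, and OR7E24 lay in the first part of an H3K9me3 domain of 575 kb, with OR7D4 at 11.6 kb inside its border. That domain runs on past the receptors over 10 genes of the ZNF family, among them ZNF121 and ZNF266, and 563 kb of it is in the clone-shared set, in 2 intervals, the longer of which (496 kb) holds both receptors.

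Several clusters lay in H3K27me3 of both clones from end to end or nearly so. On chromosome 9 all 8 members from OR13F1 to OR13D1 (chr9:104504263-104694518), with OR13C4, OR13C3, OR13C8, OR13C5, OR13C2 and OR13C9 between them, were covered by a Clone 3 domain of 460 kb and a Clone 6 domain of 246 kb. OR13F1 was the deepest member in Clone 3 H3K27me3, at 214 kb from the border. In the second large cluster of chromosome 9, from OR1J1 to OR1K1 (chr9:122477926-122800123), 12 of 14 members lay in H3K27me3 of both clones. These were OR1J1, OR1J2, OR1J4, OR1N1, OR1N2, OR1Q1, OR1B1, OR1L1, OR1L3, OR1L4, OR1L6 and OR5C1. OR1K1, at the end of the cluster, lay 5.88 kb inside the Clone 6 domain and 7.12 kb outside that of Clone 3. OR1L8 fell in a gap between domains, 7.38 kb from the nearest in Clone 6 and 8.38 kb in Clone 3.

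On chromosome 17, 11 of 12 members from OR1D5 to OR1E2 (chr17:3063607-3433841) lay in H3K27me3 of both clones. They were OR1D2, OR1G1, OR1P1, OR1A2, OR1A1, OR3A1, OR1R1P, OR3A2, OR1E1, OR3A3 and OR1E2, in domains of 251 kb and 82 kb in Clone 3 and of 436 kb in Clone 6, the domain with the most members of that set. OR1D5 started 5.39 kb outside the Clone 3 domain, and 18.2% of the 50-base words around it occur once in the genome. On the other arm of chromosome 17 the pair OR4D1 and OR4D2 lay in a domain of 68 kb in each clone. At the end of chromosome 15, OR4F6 and OR4F15 lay in H3K27me3 of both clones, in domains of 101 kb and 102 kb, while OR4F4, 59.1 kb away from the border, lay in neither mark.

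The proximal short arm of chromosome 19 holds 11 members from OR7A5 to OR10H4 (chr19:14835185-15944299). OR7A5, OR7C1, OR7A10, OR7A17, OR7C2 and OR1I1 lay in H3K27me3 domains of 276 kb in Clone 3 and 298 kb in Clone 6, together with SLC1A6, a glutamate transporter, CCDC105 and CASP14, a caspase of the epidermis. Further along, OR10H2 and OR10H3 lay in H3K27me3 of both clones. OR10H5 lay in Clone 6 alone, 20.3 kb inside a domain of 200 kb that also covers CYP4F8, CYP4F3 and CYP4F12, members of the CYP4F family of fatty acid hydroxylases, whereas the Clone 3 domain at OR10H2 was 70 kb long. OR10H1, 7.66 kb outside the Clone 6 domain, and OR10H4 lay in neither mark.

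The clones differed in H3K27me3 at 31 members. Clone 3 alone covered 24 start sites (10.6%, all genes 1.14%) and Clone 6 alone covered 7 (3.08%, all genes 2.64%). The share in Clone 6 alone was thus near that of all genes. The direction depended on short domains. With domains of at least 100 kb only, 11 members lay in Clone 3 alone (all genes 0.748%) and 17 in Clone 6 alone (all genes 1.94%), and the totals were 49 in Clone 3 (all genes 4.96%) and 55 in Clone 6 (all genes 6.14%). Over all genes Clone 6 alone thus held more start sites than Clone 3 alone with and without this limit. Every Clone 3-alone member lay in 1 of 4 clusters, with 12 of the 24 in a single cluster of chromosome 12 and 9 in the cluster around OR6K2 on chromosome 1. There is a single list for each clone, so the spread between replicates cannot be set against this difference, and clone and ChIP cannot be told apart.

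Chromosome 12 showed the difference over a whole subfamily. In the cluster from OR9K2 to OR10P1 (chr12:55126406-55636892), OR9K2 lay in H3K27me3 of both clones and OR10A7, 4.98 kb outside a Clone 3 domain, in neither mark. The other 12 members lay in Clone 3 domains alone, all 11 OR6C genes (OR6C74, OR6C6, OR6C1, OR6C3, OR6C75, OR6C65, OR6C76, OR6C2, OR6C70, OR6C68 and OR6C4) and OR10P1. Domains covered 83.7% of the cluster in Clone 3 and 3.05% in Clone 6, where the only domain in the cluster, 40 kb long, ended past OR9K2. The Clone 3 cover was made of 10 domains of 13 kb to 114 kb, 8 of which held members. Each domain of a clone set carries 2 deposited scores, and the 8 domains with members had 8 different values in the first score and a common value in the second.

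**Figure D3:**
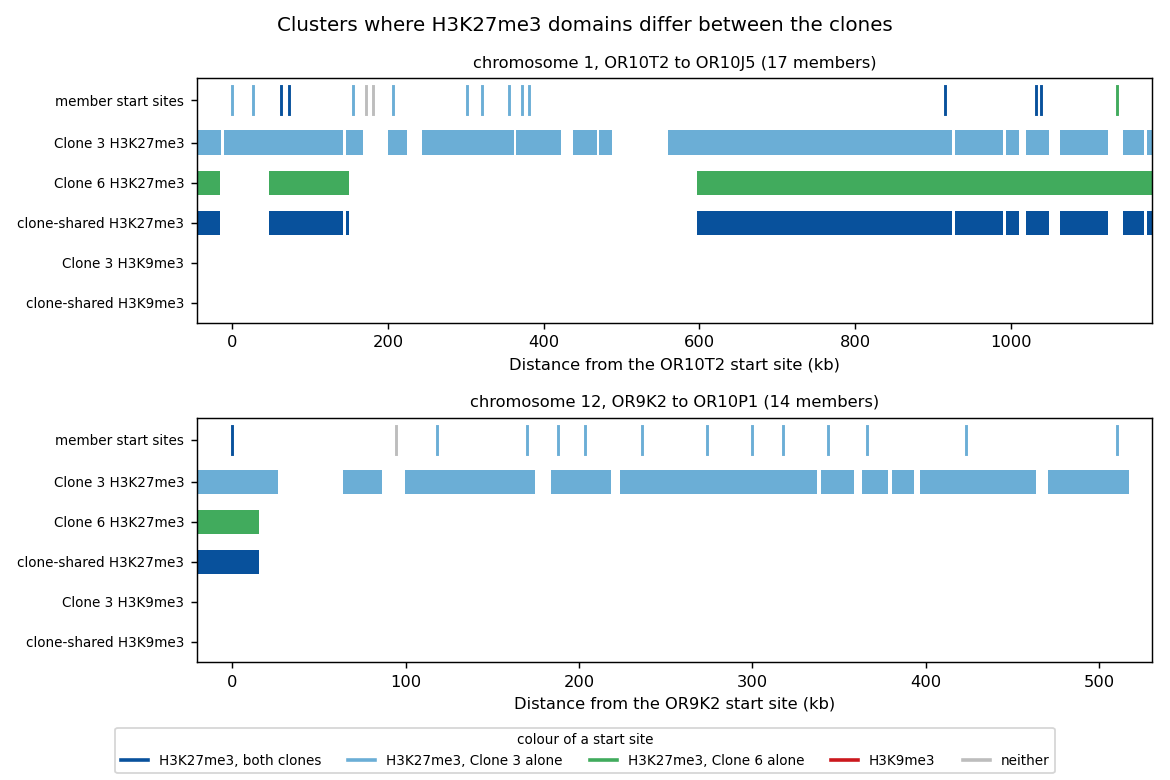
The clusters around OR10T2 on chromosome 1 and OR9K2 on chromosome 12, with member start sites above the 5 domain sets, against distance in kb from the first start site. In the chromosome 12 cluster, Clone 3 H3K27me3 covers 83.7% of the span in 10 domains, and Clone 6 H3K27me3 covers 3.05%.

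In the cluster on chromosome 1 from OR10T2 to OR10J5 (chr1:158399466-159536007), 14 of 17 members lay in Clone 3 H3K27me3 and 6 in Clone 6 H3K27me3, with domains over 83.3% and 56.7% of its length. OR10K1, OR10R2, OR10J3, OR10J4 and OR10J1 lay in both. OR10T2, OR10K2, OR6Y1, OR10Z1, OR6K2, OR6K3, OR6K6, OR6N1 and OR6N2 lay in Clone 3 alone, and OR10J5 in Clone 6 alone. OR6P1, 3.58 kb outside a Clone 3 domain, and OR10X1 lay in neither. The 7 Clone 3 domains with members were 21 kb to 365 kb long, again with 7 values of the first score and a common value of the second, while the Clone 6 domains with members were 104 kb and 784 kb long. OR10J4 lay 348 kb from the border of the longer one, the deepest of all members in Clone 6, and 13.2 kb from the border in Clone 3. The Clone 3 and Clone 6 domains at OR10J3 both cover IFI16 and AIM2, sensors of DNA, PYDC5, CADM3, ACKR1 and FCER1A, and the Clone 6 domain reaches on over CRP and APCS, the pentraxin genes.

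The remaining members in Clone 6 alone were few. OR6B2 and OR6B3, a pair at the end of chromosome 2, lay in a Clone 6 domain of 98 kb, with OR6B2 at 4.43 kb and OR6B3 at 27.5 kb from its border. OR5H2 and OR5H8, in the middle of the cluster of 10 members on chromosome 3 (chr3:98130721-98497681), lay in a Clone 6 domain of 78 kb. OR5H6, their neighbour, started 2.75 kb outside it, and OR5H1, OR5H14, OR5H15, OR5K4, OR5K3, OR5K1 and OR5K2 were also in neither mark.

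Counted once for each member, domains over members covered in a single clone had lower medians of length and of score rank. Members that share a domain repeat its values, and a domain can hold members of both kinds. In Clone 3 the both-clone members lay in 18 domains and the Clone 3-alone members in 14. Ranked among the 2600 Clone 3 H3K27me3 domains by the lower of the deposited scores, the domains of the 57 both-clone members had a median percentile of 76.3 and a median length of 195 kb over members. Those of the 24 Clone 3-alone members had a median percentile of 66.1, a range of 0.808 to 81.4, and a median length of 75 kb. OR4N5 held the lowest of these ranks. In Clone 6, with 1959 domains, the medians were a percentile of 77.1 and 246 kb over both-clone members, and 64.2 and 98 kb over the 7 members in Clone 6 alone. These 7 members lay in 5 domains, and the both-clone members in 15. OR5H2 and OR5H8 shared a domain of 78 kb, and OR6B2 and OR6B3 shared that of 98 kb. The other domains, of 200 kb, 212 kb and 784 kb, also held both-clone members and had percentiles of 75.5, 77.1 and 91.0. The scale of the scores is not named in the sources used here, so only ranks within a set are given, and a weaker call and an absent one cannot be told apart.

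Among the clusters without any domain, the largest lies beside the major histocompatibility complex on chromosome 6. Its 18 members run from OR2B2 to OR2H2 (chr6:27912396-29585121), and between them lie OR2B6, OR2B8P, OR2W1, OR2B3, OR2J1, OR2J3, OR2J2, OR14J1, OR12D3, OR12D2, OR12D1, OR5V1, OR10C1, OR11A1, OR2H1 and OR2I1P. The nearest H3K27me3 domain was 3702 kb from a member there and the nearest Clone 3 H3K9me3 domain 440 kb. All of these start regions were mostly single-copy, with 81.1% to 99.2% of the 50-base words present once. The 13 members from OR9A2 to OR2A1 on chromosome 7 (chr7:143027132-144312419) also lay in neither mark, with the nearest H3K27me3 domain at 549 kb. They are OR9A2, OR6V1, OR2F2, OR2F1, OR6B1, OR2A5, OR2A25, OR2A12, OR2A2, OR2A14, OR2A42, OR2A7 and OR2A1. Of these, OR2A42, OR2A7 and OR2A1 were mostly repeated, with 9.27%, 12.0% and 9.67% of the 50-base words present once.

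The other clusters with no member in a domain were small. They were OR4F5, OR4F29 and OR4F16 at the start of chromosome 1, OR2Y1, OR2V1, OR2V2 and OR4F3 on chromosome 5, OR9A1P and OR9A4 on chromosome 7, and OR13J1, OR2S2 and OR13C7 on chromosome 9. Chromosome 15 held OR4M2B, OR4N4C, OR4M2-OT1, OR4M2 and OR4N4, and chromosome 16 held OR1F1 and OR2C1. An H3K9me3 domain lay between OR1F1 and OR2C1 over ZNF75A and TIGD7, and OR2C1 started 6.11 kb from another one on its far side. The members that stand alone are OR2A4, OR4F21, OR2K2, OR13A1, OR8S1, OR11H12, OR4F17 and OR11H1. Among them OR8S1 came nearest to a domain, 6.63 kb outside Clone 3 H3K27me3.

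Repeated sequence moved with the absence of a domain. The share of 50-base words in the 10 kb around a start site that occur once in hg38 had a median of 94.3% over the members and ran from 0.412% to 100%. It was under 50% in 27 members, and all 27 lay in neither mark at the start of the gene record. OR4N2, 1 of the 27, lay in H3K9me3 at the start of its canonical transcript. Among them are OR4F5, OR4F29, OR4F16, OR4F3, OR4F21, OR4F4 and OR4F17, 5 OR2T genes (OR2T2, OR2T5, OR2T29, OR2T11 and OR2T35), and OR11H12, OR11H2 and OR11H1. The remaining 80 members in neither mark had at least 50% single-copy words. Of the 200 members with at least 50%, 120 (60%) lay in a domain. How reads with several placements were handled is not given in the sources used here, and the part of repeated sequence in these counts was not tested.

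**Figure D4:**
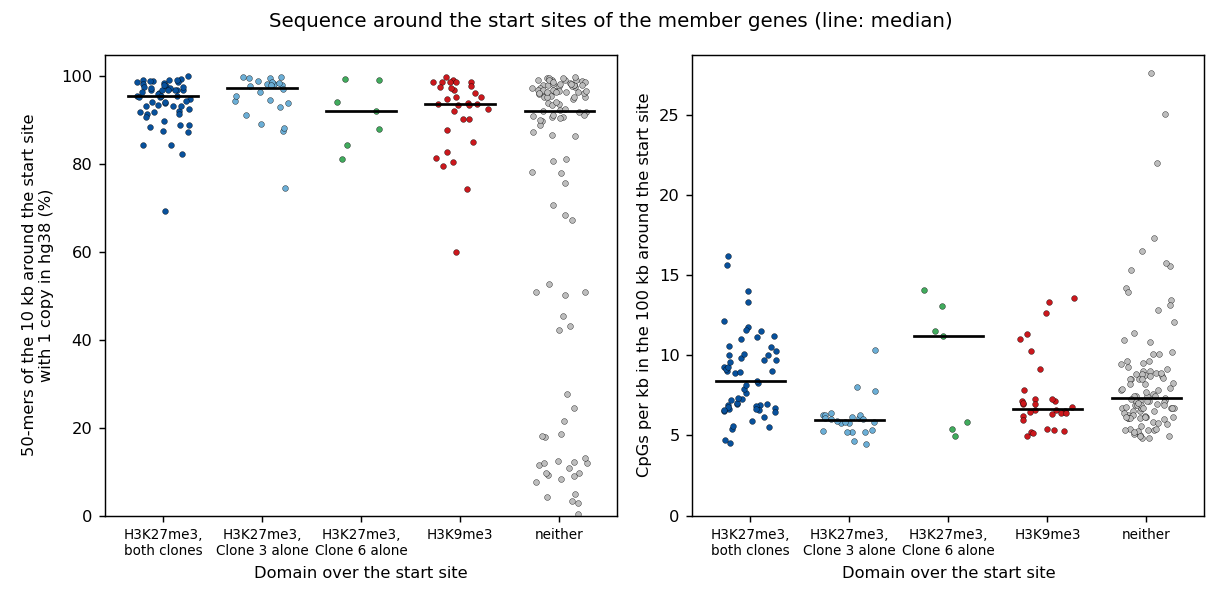
Left, percent of 50-base words in the 10 kb around each member's start site that occur once in hg38. Right, CpGs per kb in the surrounding 100 kb. Points are the 227 members by state of the domains and lines are medians; all 27 members under 50% single-copy lie in neither mark at the start of the gene record, and the Clone 3-alone members have a median of 5.95 CpGs per kb.

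Every group of members had a median CpG density below that of the other protein-coding genes. Over the 100 kb around the start site the members had a median of 7.13 CpGs per kb (4.46 to 27.6) and 38.2% GC, against 13.7 CpGs per kb and 44.4% GC around the other protein-coding genes. The medians were 6.995 CpGs per kb for members in H3K27me3, 6.68 in H3K9me3 and 7.36 in neither mark. Within H3K27me3 the median was 8.37 for members covered in both clones, 5.95 in Clone 3 alone and 11.2 in Clone 6 alone. Neighbours share most of a 100 kb window, so these medians rest on few clusters, and OR1F1, at 27.6, had the highest value.

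Motif letters were counted in the 168 RefSeq promoters on both strands. TATAAA, the letters of a TATA box, was found in 59 (35.1%), beside 9.72% of all 14616 protein-coding promoters. It was found in 28.2% of members in H3K27me3, 52.2% of those in H3K9me3 and 36.5% of those in neither mark. TAATTA, a core that homeodomain factors such as LHX2 bind, was found in 36 (21.4%), beside 3.33% of all promoters, with 18.3%, 17.4% and 25.7% in the same order. The palindromic core that EBF factors bind was found in 1 (0.595%), beside 1.42% of all promoters. Matches of TATAAA and TAATTA may overlap, both are made of A and T alone, and the promoters were not matched on base composition.

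Receptor families differed as the clusters did. Over all genes, 6.49% lay in Clone 3 H3K27me3, 7.98% in Clone 6 H3K27me3, 3.50% in Clone 3 H3K9me3 and 12.6% in any domain. Family 1 had 26 members, of which 20 lay in Clone 3 and 21 in Clone 6 H3K27me3. Family 2, the largest with 61, had 5 and 3 in H3K27me3 of the clones, near the background, 14 in H3K9me3 and 42 in neither mark. Family 6 had 25 members with 17 in Clone 3 and 2 in Clone 6 H3K27me3. Most of the former were the OR6C genes, and the latter count is near the background. Family 4 was divided into 7 in Clone 3 H3K27me3, 8 in H3K9me3 and 17 in neither mark of its 32 members. Of the 12 members of family 13, 8 lay in H3K27me3 of both clones, and the OR3 genes did so in 3 of 3 cases. None of the 7 members of family 14 lay in H3K27me3, which is near the background for so few genes, and 4 lay in H3K9me3. All 9 OR2A genes, all 6 OR11H genes and 7 of 9 OR4F genes lay in neither mark. With 12.6% of all genes in any domain, these counts are near the background for so few genes. By strand, 51 of 137 members on the plus strand and 37 of 90 on the minus strand lay in H3K27me3.

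Pseudogenes of the same family inside the clusters, which the rule did not use, were counted in the same way. Of 104 such pseudogenes, 39.4% lay in Clone 3 H3K27me3, 27.9% in Clone 6 H3K27me3 and 13.5% in Clone 3 H3K9me3, and 47.1% lay in neither mark. All 10 pseudogenes in the OR10T2 cluster lay in Clone 3 H3K27me3, and all 14 in the OR2B2 cluster lay in neither mark. Protein-coding genes of other families that start within the clusters gave lower shares, which were not tested. Of these 138 genes, 9.42% lay in Clone 3 H3K27me3, 13.8% in Clone 6 H3K27me3 and 2.90% in Clone 3 H3K9me3. In neither mark lay 82.6% of them. Over all genes the shares were 6.49%, 7.98% and 3.50%, and 12.6% lay in any domain. The share of these other coding genes in H3K9me3 was thus near the background, and those in H3K27me3 were somewhat above it. In the OR2B2 cluster 21 and in the OR9A2 cluster 20 such genes start, none of them in a domain.

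**Figure D5:**
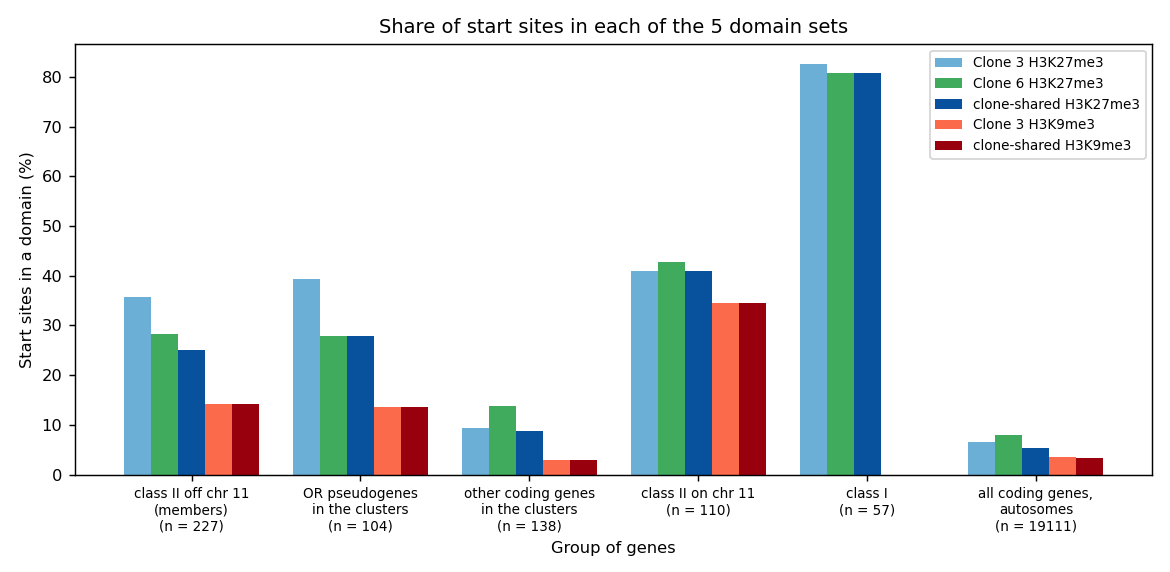
Percent of start sites in each of the 5 domain sets (bars, from 0) for the members, the olfactory receptor pseudogenes and other coding genes in the same clusters, class II receptors on chromosome 11, class I receptors and all protein-coding genes on the autosomes. In Clone 3 H3K27me3 the bars run from 6.49% for all genes to 82.5% for class I receptors, with the members at 35.7%.

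Other chemosensory receptor genes were counted side by side. Of the 110 class II receptor genes on chromosome 11, 40.9% lay in Clone 3 H3K27me3, 42.7% in Clone 6 H3K27me3 and 34.5% in Clone 3 H3K9me3, and 77.3% in any domain. None of them lay in Clone 3 H3K27me3 alone (all genes 1.14%) and 2 (1.82%) in Clone 6 alone (all genes 2.64%), both near the background. The members off chromosome 11 had 24 (10.6%) and 7 (3.08%). The 57 class I receptor genes bind hydrophilic odorants and form a single cluster. Of these, 82.5% and 80.7% lay in H3K27me3 of the clones and none in H3K9me3 (all genes 3.50%). The 24 bitter taste receptor genes (TAS2R) had none in H3K27me3, which at 6.49% and 7.98% of all genes in the clones is near the background for a set of this size. They had 1 in H3K9me3, near the 3.50% of all genes. Of the 4 vomeronasal receptor genes (VN1R), 3 lay in H3K9me3, and none of the 6 trace amine-associated receptor genes (TAAR) lay in any domain, which at 12.6% of all genes is near the background for so few genes.

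Many members stood close to a border. Members in Clone 3 H3K27me3 had a median distance of 23.5 kb to the border, those in Clone 6 H3K27me3 56.0 kb and those in Clone 3 H3K9me3 90.2 kb. Within 10 kb of a border stood 15 members inside and 9 outside in Clone 3 H3K27me3, 3 and 8 in Clone 6 H3K27me3, and 1 and 4 in Clone 3 H3K9me3. OR6C68, at 2.38 kb inside, and OR2G3 were the nearest to a Clone 3 H3K27me3 border. The 81 members in Clone 3 H3K27me3 shared 30 of its 2600 domains, with a median of 69 kb and at most 8 members each, and the 64 in Clone 6 shared 17 of 1959, with a median of 122 kb and up to 11 members. The 32 members with H3K9me3 shared 3 of 567 domains.

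Genes of olfactory signalling outside the receptor family, with other factors such as LDB1, KDM1A, CBX5, BPTF, DDIT3 and EIF2AK3, were read from a list of 28. All were found in the annotation. H3K27me3 domains held 7 of them in Clone 3 (all genes 6.49%) and 8 in Clone 6 (all genes 7.98%), and 6 in both (all genes 5.35%). CNGA2, counted in each, lies on chromosome X, outside the autosomal genes of these shares. None lay in Clone 3 H3K9me3, which at 3.50% of all genes is near the background for a list of this size. The 6 are GNAL, the olfactory G protein subunit, CNGA2, a subunit of the cyclic nucleotide-gated channel, ANO2, the calcium-activated chloride channel, PDE1C, a phosphodiesterase, and the transcription factors EBF1 and EMX2. RTP2, which carries receptors to the cell surface, lay in Clone 3 alone, 2.44 kb inside the border. STOML3 lay in Clone 6 alone, 5.14 kb inside the border there and 2.86 kb outside that of Clone 3. LHX2, a homeodomain factor of olfactory neurons, lay in Clone 6 alone, 7.67 kb inside. The other 19 listed genes, among them ADCY3, CNGB1 and OMP, lay in no domain.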

How the data were processed

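HCT116 shUHRF1 cells without doxycycline were profiled by ChIP-seq for H3K27me3 and H3K9me3. The authors trimmed reads with Trim Galore 0.5.0, aligned them to hg38 with Bowtie2 2.3.5, removed duplicates with samblaster and called broad domains with Enriched Domain Detector at default settings, keeping those found in both replicates. The deposited files hold domain coordinates, and the clone sets also hold 2 scores per domain whose scale is not named; the score was used only to rank domains within a set. The study states a minimum depth per library, but domain lists carry no read counts, so the depth of each sample and the precision it gives were not read.

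A gene was placed by the start site of its GENCODE 44 record. CpG and GC were counted in 100 kb and 300 bp windows, and 50-base words were counted over the assembled chromosomes of hg38. Background shares are over all protein-coding autosomal genes. Genes of every cluster are named, with the members at each change of state and at borders described further. The members, the gene lists and the rules were chosen with earlier results of these data known. Alternatives concerned the start site, gene body, domain length, borders, score, symbol rule, cluster distance and the cluster with the most members; leaving out members with under 50% single-copy words was chosen after seeing the data. The interval code was tested on simulated data. Python 3.11.15, numpy 2.4.6, pandas 2.3.3 and matplotlib 3.10.9 were used.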

Additional observations from a re-analysis of the deposited data

How the results depend on the processing

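Of 80 alternative counts, 74 stayed within 1.5 times the reported count. With domains of at least 100 kb only, 49 members lay in Clone 3 H3K27me3, 55 in Clone 6 H3K27me3 and 36 in the clone-shared set, with 11 in Clone 3 alone and 17 in Clone 6 alone; shorter domains are left out by construction, and Clone 6-alone members then outnumbered Clone 3-alone ones. Without the largest cluster, from OR2B11 to OR14I1, 184 members remained and 10 lay in H3K9me3, both in the Clone 3 and in the clone-shared set. The alternative by score was run on the clone sets only, since the shared sets carry no score. No paired analysis was possible because the deposited domain lists join the replicates of each clone and mark. The depth of each sample cannot be read from domain lists, so what it limits was not tested.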
